A study of Homo sapiens with 12 samples.

Results

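The 10 genes described here are classical targets of the transcription factor p53: CDKN1A, MDM2, GADD45A, ZMAT3, SESN1, SESN2, AEN, TP53INP1, XPC and PPM1D. They are known p53 targets listed by name, with earlier results of these data in view, and are 10 of 57002 human genes in the table. All 10 passed the filter on low counts, as did 15831 genes in all. Positions are GRCh38 throughout. The genes were measured in THP-1 cells, an established acute myeloid leukaemia line that carries the MLL-AF9 fusion, after AZ5576, THZ531, YKL5124 or the vehicle DMSO, with 3 libraries per group. Treatment lasted 2 h, and 1 mM 4-thiouridine, a uridine analogue taken up into new RNA, was present in every group for the last 10 min. The known targets are CDK9 for AZ5576, CDK12 with CDK13 for THZ531, and CDK7 for YKL5124, and the labels name no dose. The counts are of all reads from the 3' ends of polyadenylated RNA, labelled or not, so they give RNA levels and not rates of synthesis. Every sample is of a single line, and the labels do not say that replicates were separate cultures, so each p-value reflects variation among libraries that could be purely technical.

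The protein p53 binds DNA after damage and other stress and switches on genes that stop the cell cycle, repair DNA, limit growth signals or kill the cell. It also switches on its own inhibitors: MDM2, the ligase that marks p53 for destruction, and PPM1D, a phosphatase that turns the damage response off. THP-1 is known to lack functional p53, and the genes are described here as a named set. CDK9, CDK12, CDK13 and CDK7 are kinases of the transcription machinery. CDK7 acts at initiation, CDK9 releases paused RNA polymerase II into the gene, and CDK12 and CDK13 act during elongation and are known to favour the use of a gene's last polyadenylation sites over sites inside introns.

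Since the reads mark RNA ends, annotated ends of the CDKN1A and MDM2 rows described below are shown first. Each is a 30-base stretch from the GENCODE transcripts, written 5' to 3' with the polyadenylation signal AATAAA in capitals. CDKN1A has an end in its last exon (chr6:36687297-36687326, GRCh38, plus strand) and another inside its first intron (chr6:36680812-36680841). MDM2 has the end of its full-length 3' UTR (chr12:68850649-68850678, plus strand) and an annotated end in the middle of that UTR (chr12:68844151-68844180). The signal starts 29 and 34 bases before the transcript end at the CDKN1A sites and 26 and 28 bases before it at the MDM2 sites.
CDKN1A, end in the last exon: cagcaggtgctcAATAAAtgattcttagtg
CDKN1A, end in the first intron: ggcaggaaggccAATAAAggaggctatttt
MDM2, end of the UTR: cacctggaaatcAATAAAatttgttattca
MDM2, end in the middle of the UTR: acacgtgttgaaAATAAAtgattaagaatt

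Promoter windows of 300 bases were read from RefSeq (GRCh38.p14), which held 14 windows for 8 of the 10 genes. An exact match to the consensus of a p53 half-site was found in 2 of the 14 windows, against 6.63% of 35116 promoter windows of all genes. The consensus was searched on both strands, where it reads alike, with no mismatch allowed. A window without a match can therefore still hold a p53 site that departs from the consensus. The 2 windows are a start site of SESN1 (chr6:109008939-109009238, minus strand), with the half-site 49 bases before the start, and that of AEN (chr15:88621090-88621389, plus strand), with the half-site 34 bases before the start. They are shown because both genes carry the motif and differed in their changes below, and the half-site is in capitals. The CDKN1A window (chr6:36678464-36678763, plus strand) held no exact half-site match and 4 copies of GGGCGG on the strand shown, in capitals, the last pair overlapping.
SESN1: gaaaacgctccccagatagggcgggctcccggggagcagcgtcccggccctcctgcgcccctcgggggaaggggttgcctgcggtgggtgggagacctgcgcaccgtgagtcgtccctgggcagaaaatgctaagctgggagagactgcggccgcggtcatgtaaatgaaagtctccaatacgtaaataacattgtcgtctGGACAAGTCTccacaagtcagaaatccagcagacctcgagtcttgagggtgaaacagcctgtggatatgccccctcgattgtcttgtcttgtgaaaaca
AEN: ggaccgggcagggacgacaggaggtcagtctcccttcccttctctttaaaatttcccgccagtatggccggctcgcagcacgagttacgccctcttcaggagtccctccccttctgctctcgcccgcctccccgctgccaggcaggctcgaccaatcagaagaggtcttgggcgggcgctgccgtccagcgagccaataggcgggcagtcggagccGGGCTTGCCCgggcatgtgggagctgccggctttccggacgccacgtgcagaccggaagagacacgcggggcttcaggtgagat
CDKN1A: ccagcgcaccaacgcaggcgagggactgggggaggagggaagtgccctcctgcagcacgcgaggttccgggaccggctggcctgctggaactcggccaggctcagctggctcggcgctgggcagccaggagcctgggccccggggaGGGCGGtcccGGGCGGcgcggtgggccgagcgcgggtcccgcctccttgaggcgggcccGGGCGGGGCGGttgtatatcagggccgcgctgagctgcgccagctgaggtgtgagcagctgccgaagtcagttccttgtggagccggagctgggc
The motif GGGCGG, searched on both strands, was in 13 of the 14 windows, against 45% of all windows, and CCAAT was in 10, against 34.6%. The windows are not independent: 4 are of MDM2 and form 2 pairs that share nearly all bases, and by gene GGGCGG was in 8 of 8 and CCAAT in 6 of 8. The shares of all windows do not apply to these counts by gene, since a gene with more windows has more chances of a match. No share by gene was computed for all genes. TATAAA was in 0 of the 14 windows and in 11.5% of all windows. TGACGTCA was in 1, that of PPM1D, against 1.85% of all. These matches describe letters in a window and were tied to no binding data.

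Libraries held 5048321 to 12743576 human read counts, and the ratio of human to spiked-in fly counts was 7.97 to 10.6. Within DMSO alone the ratio was 8.81, 8.47 and 10.6, so values from fly scaling are uncertain. Myeloid markers were present (10 of 12 at 5 CPM or more in every library, CPM being human read counts scaled to a common library total with TMM factors), while markers of T cells, red cells, epithelium and fibroblasts summed to at most 0.594 CPM and those of B cells to 4.56 to 10.9 CPM. AZ5576 replicate 2 was the shallowest library and stood apart from replicates 1 and 3 on principal component 3 (29.6 against 4.13 and 2.15). Changes are given relative to the middle of all human genes. Scaled to the fly counts instead, the median log2 fold change of all genes was -0.17 for AZ5576, -0.37 for THZ531 and -0.07 for YKL5124 against DMSO. The share of calls that were higher was then 10.3%, 13.2% and 21.1%, in place of 44.7%, 48% and 34.9%. Library size alone, without the fly counts, gave medians of -0.12, -0.29 and -0.02.

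The 3 inhibitors moved the 10 genes differently. Under AZ5576, 1 gene rose (ZMAT3) and 6 fell (GADD45A, PPM1D, SESN2, AEN, CDKN1A and XPC), while 41.7% of all genes were called at an adjusted p under 0.05 in edgeR's quasi-likelihood test, 18.6% higher and 23.1% lower. Under THZ531, 5 rose (ZMAT3, SESN2, GADD45A, TP53INP1 and SESN1) and 4 fell (XPC, CDKN1A, AEN and MDM2), beside 63.4% of all genes, 30.4% higher and 32.9% lower. Under YKL5124, 0 rose and 6 fell (AEN, PPM1D, SESN2, CDKN1A, GADD45A and MDM2), beside 20.8% of all genes, 7.25% higher and 13.5% lower. The median log2 fold change of the 10 genes was -0.55 under AZ5576, 0.21 under THZ531 and -0.28 under YKL5124, while that of all genes was 0.01, -0.00 and -0.00. These 3 comparisons share the DMSO libraries. The libraries of a gene did not overlap DMSO for 6 genes under AZ5576, all lower, beside 47.8% of all genes (26.2% lower). They did not overlap for 9 under THZ531 (5 higher and 4 lower), beside 67% of all genes (32.5% higher and 34.5% lower), and for 7 under YKL5124 (1 higher and 6 lower), beside 35.1% (14.7% higher and 20.5% lower). With fly scaling 0 rose and 6 fell under AZ5576, 3 rose and 5 fell under THZ531, and 0 rose and 5 fell under YKL5124. Without AZ5576 replicate 2 the AZ5576 counts were again 1 and 6. In bulk RNA, fewer cells with a transcript and less of it per cell cannot be told apart.

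**Figure D1:**
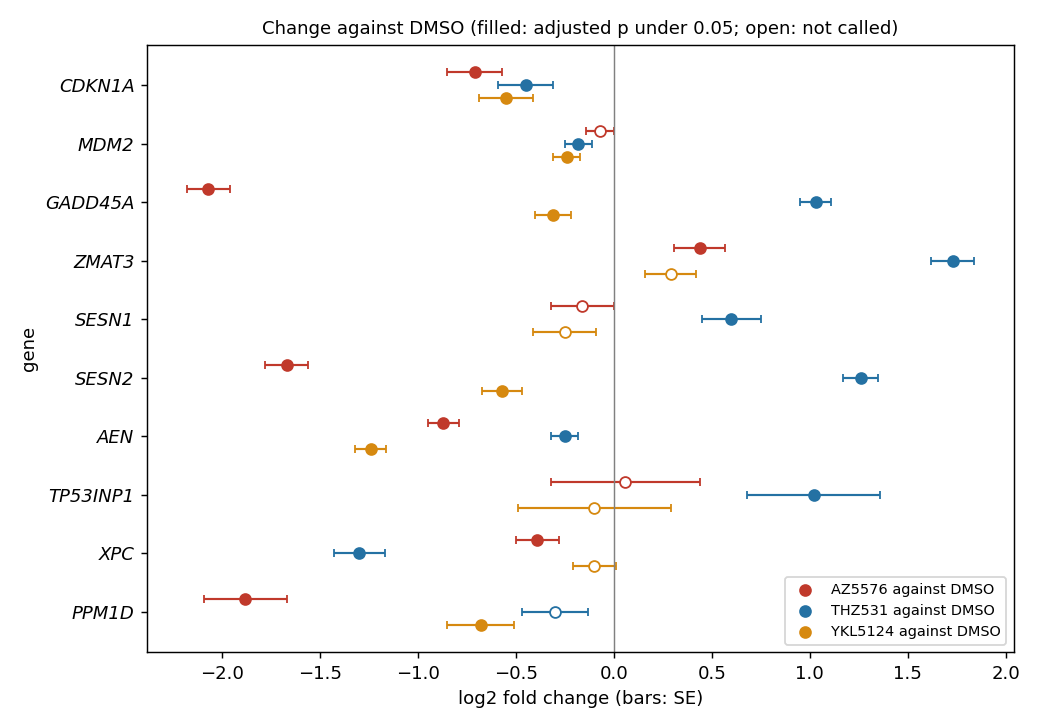
Log2 fold change of each p53 target gene against DMSO, with the SE as bars, for AZ5576, THZ531 and YKL5124 (filled points were called at an adjusted p under 0.05, open points were not). GADD45A and SESN2 lay below 0 under AZ5576 (-2.07 and -1.67) and above 0 under THZ531 (1.03 and 1.26).

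CDKN1A (ENSG00000124762, chr6:36676460-36687339, plus strand) encodes p21, an inhibitor of cyclin-dependent kinases that halts the cell cycle, and it was lower under each inhibitor. The row counted is the 3' UTR in its last exon (chr6:36685798-36687337), with 1149 counts in the 12 libraries. It had 7.11, 9.31 and 6.68 CPM in AZ5576 libraries, 9.11, 7.5 and 9.95 CPM in THZ531 libraries, 8.37, 7.46 and 8.99 CPM in YKL5124 libraries, and 11.9, 11.9 and 12.6 CPM in DMSO libraries. All 9 inhibitor libraries lay below the 3 DMSO libraries, and the inhibitor groups overlapped one another. CDKN1A fell by 0.71 on the log2 scale under AZ5576 (SE 0.14, adjusted p = 0.000179, edgeR), by 0.45 under THZ531 (SE 0.14, adjusted p = 0.0059) and by 0.55 under YKL5124 (SE 0.14, adjusted p = 0.00386). No pair of inhibitors differed past the threshold. The log2 differences were -0.26 for AZ5576 against THZ531 (95% interval -0.57 to 0.05), -0.16 for AZ5576 against YKL5124 (-0.47 to 0.14) and 0.10 for THZ531 against YKL5124 (-0.20 to 0.39). With all rows of the gene summed, AZ5576 against THZ531 passed the threshold (-0.32, adjusted p = 0.0482). That sum counts the last-exon reads 4 times, as 4 transcripts share them, and adds the reads at the end in the first intron. Its adjusted p therefore rests on repeated reads.

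GADD45A (ENSG00000116717, chr1:67685061-67688338, plus strand) encodes a small protein that promotes growth arrest and stress kinase signalling, and it had the largest fall of the 10 genes under AZ5576. Its 3' UTR (chr1:67687772-67688333) held 3555 counts. The gene had 6.39, 7.33 and 7.26 CPM in AZ5576 libraries, 58.5, 60 and 60.1 CPM in THZ531 libraries, 26.7, 23.5 and 21.1 CPM in YKL5124 libraries, and 29.7, 28.9 and 28.8 CPM in DMSO libraries. The 4 groups did not overlap, with THZ531 highest, then DMSO, YKL5124 and AZ5576. GADD45A was 4.21-fold lower under AZ5576 than in DMSO (log2 fold change -2.07, SE 0.11, adjusted p = 3.69e-15) and 2.04-fold higher under THZ531 than in DMSO (1.03, SE 0.08, adjusted p = 6.02e-12). Under YKL5124 it fell by 0.31 (SE 0.09, adjusted p = 0.0136). That YKL5124 call was lost without YKL5124 replicate 3 (-0.22, adjusted p = 0.127) and in DESeq2 (-0.28, adjusted p = 0.0548).

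**Figure D2:**
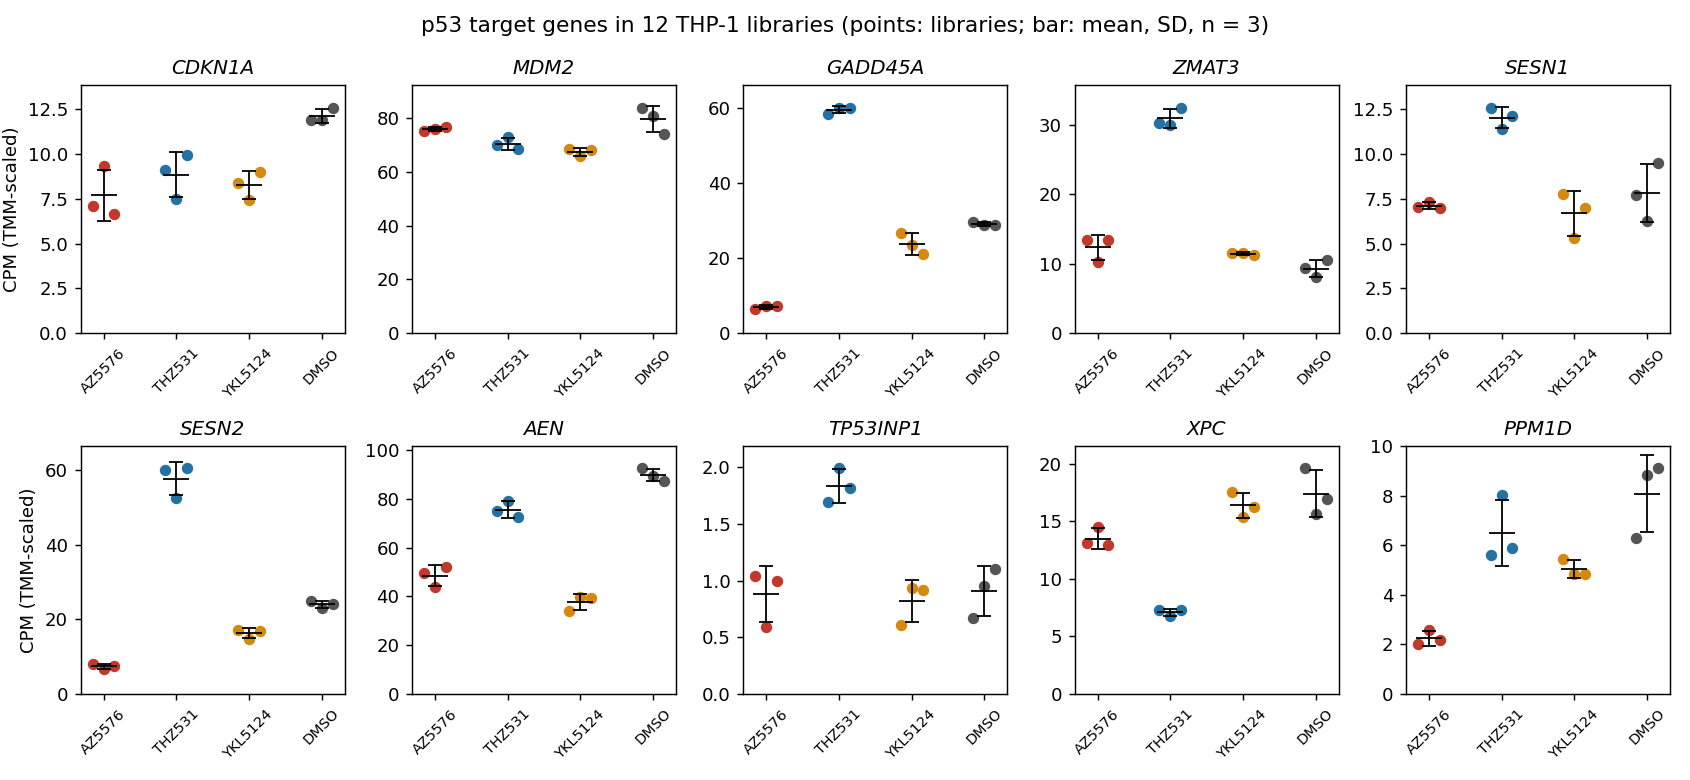
CPM of the 10 p53 target genes in each library (points) with the mean and SD of the 3 libraries per group, from AZ5576 at the left to DMSO at the right. GADD45A, SESN2 and ZMAT3 were highest in THZ531 libraries (means 59.5, 57.7 and 31 CPM), while CDKN1A was highest in DMSO (12.1 CPM).

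The feedback inhibitors of p53 did not move alike. MDM2 (ENSG00000135679, chr12:68808176-68850686, plus strand) was read over the whole 3' UTR of its full-length mRNA. It had 75.2, 76.1 and 76.7 CPM in AZ5576 libraries, 69.9, 73 and 68.6 CPM in THZ531 libraries, 68.4, 65.9 and 68.2 CPM in YKL5124 libraries, and 84, 80.8 and 74.3 CPM in DMSO libraries. AZ5576 libraries overlapped DMSO, and THZ531 and YKL5124 libraries lay just below it. MDM2 fell by 0.18 under THZ531 (SE 0.07, adjusted p = 0.0248) and by 0.24 under YKL5124 (SE 0.07, adjusted p = 0.00984), and did not pass the test under AZ5576 (-0.07, SE 0.07, 95% interval -0.20 to 0.06, adjusted p = 0.44). Both calls were lost without DMSO replicate 1 (-0.14 for THZ531 and -0.20 for YKL5124). The THZ531 call was also lost with no low-count filter (-0.19) or with rows summed (-0.14), and the YKL5124 call with upper quartile factors (-0.18) or fly scaling (-0.30). The AZ5576 value passed the threshold with library size alone (-0.19) and with rows summed (-0.39). The sum of rows counts reads in the middle of this UTR several times, since rows overlap there. The counted stretch of MDM2 overlaps exons of CPM (133 bases, opposite strand), of the pseudogene AC025423.2 (439 bases, same strand) and of the antisense gene AC025423.4 (401 bases).

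PPM1D (ENSG00000170836, chr17:60600183-60666280, plus strand) had few reads in its 3' UTR (chr17:60663550-60666280), 13 to 116 counts per library. It had 2, 2.58 and 2.17 CPM in AZ5576 libraries, 5.6, 8.05 and 5.88 CPM in THZ531 libraries, 5.46, 4.85 and 4.83 CPM in YKL5124 libraries, and 6.3, 8.85 and 9.12 CPM in DMSO libraries. AZ5576 libraries lay below all others and YKL5124 libraries below DMSO, while THZ531 and DMSO overlapped. PPM1D was 3.68-fold lower under AZ5576 than in DMSO (log2 fold change -1.88, SE 0.21, adjusted p = 1.66e-08) and fell by 0.68 under YKL5124 (SE 0.17, adjusted p = 0.00475). Under THZ531 its log2 fold change of -0.30 (SE 0.17, 95% interval -0.63 to 0.04) did not pass the test (adjusted p = 0.132), but it did without THZ531 replicate 2 (-0.51), without DMSO replicate 1 (-0.46), with library size alone (-0.59) and on fly scaling (-0.67). A second row of PPM1D, from a transcript annotated for nonsense-mediated decay, held 626 counts and moved by -1.48 (SE 0.21) under AZ5576, 0.14 (SE 0.17) under THZ531 and -0.40 (SE 0.18) under YKL5124 on the log2 scale, called for AZ5576 only (adjusted p = 1.06e-06, 0.52 and 0.148).

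SESN1 and SESN2 encode sestrins, stress-induced proteins that restrain the growth kinase mTORC1, and SESN2 had the wider spread of the pair. SESN2 (ENSG00000130766, chr1:28259527-28282491, plus strand) was read in its 3' UTR (chr1:28280800-28282491, 3119 counts). SESN2 had 8.07, 6.74 and 7.51 CPM in AZ5576 libraries, 60, 52.6 and 60.5 CPM in THZ531 libraries, 17.2, 14.8 and 16.8 CPM in YKL5124 libraries, and 25, 23.1 and 24.1 CPM in DMSO libraries. The 4 groups did not overlap and stood in the same order as for GADD45A. SESN2 fell by 1.67 under AZ5576 (SE 0.11, adjusted p = 5.78e-13), rose by 1.26 under THZ531 (SE 0.09, adjusted p = 1.62e-13) and fell by 0.57 under YKL5124 (SE 0.10, adjusted p = 5.95e-05). Each of these calls held under all alternatives tried at the gene level.

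SESN1 (ENSG00000080546, chr6:108986437-109094819, minus strand) was read in its 3' UTR (chr6:108986437-108987546, 1018 counts). Its values were 7.03, 7.33 and 7.01 CPM in AZ5576 libraries, 12.6, 11.4 and 12.1 CPM in THZ531 libraries, 7.76, 5.31 and 6.99 CPM in YKL5124 libraries, and 7.71, 6.28 and 9.51 CPM in DMSO libraries. THZ531 libraries were above the others, which overlapped. SESN1 rose by 0.60 under THZ531 (SE 0.15, adjusted p = 0.000826). It did not pass the test under AZ5576 (-0.16, 95% interval -0.47 to 0.16, adjusted p = 0.465) or YKL5124 (-0.25, 95% interval -0.56 to 0.06, adjusted p = 0.298). The THZ531 rise did not pass with library size alone (0.31, adjusted p = 0.0747) or fly scaling (0.23, adjusted p = 0.262).

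Of the genes tied to cell death, AEN, an exonuclease that promotes apoptosis, was lower under each inhibitor. AEN (ENSG00000181026, chr15:88621296-88632282, plus strand) was read over chr15:88630058-88632281, a retained-intron transcript that spans nearly all of the 3' UTR of the coding mRNA, and the row of that mRNA held 7904 counts against 7920 here. AEN had 49.7, 43.8 and 52 CPM in AZ5576 libraries, 74.9, 79.3 and 72.5 CPM in THZ531 libraries, 34.1, 39.8 and 39.4 CPM in YKL5124 libraries, and 92.6, 89.6 and 87.3 CPM in DMSO libraries. The 4 groups did not overlap, and YKL5124 libraries were lowest. AEN was 2.37-fold lower under YKL5124 than in DMSO (log2 fold change -1.24, SE 0.08, adjusted p = 2.23e-13), and 1.41% of all genes had a lower value there. It fell by 0.87 under AZ5576 (SE 0.08, adjusted p = 1.26e-10) and by 0.25 under THZ531 (SE 0.07, adjusted p = 0.00399).

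TP53INP1 (ENSG00000164938, chr8:94925972-94949411, minus strand), a protein that links stress to cell death and autophagy, had too few counts for a firm statement: 3 to 18 per library and 135 in all. It had 1.04, 0.594 and 1 CPM in AZ5576 libraries, 1.69, 1.99 and 1.82 CPM in THZ531 libraries, 0.606, 0.932 and 0.916 CPM in YKL5124 libraries, and 0.667, 0.952 and 1.1 CPM in DMSO libraries. THZ531 libraries were above the rest, which overlapped. TP53INP1 rose by 1.02 under THZ531 (SE 0.34, adjusted p = 0.0102). This call was lost without DMSO replicate 1 (0.82), with library size alone (0.73) and on fly scaling (0.66). The log2 fold change was 0.06 under AZ5576 (95% interval -0.68 to 0.81, adjusted p = 0.913) and -0.10 under YKL5124 (-0.86 to 0.65, adjusted p = 0.89), intervals that leave room for changes of more than 1.5 fold in either direction.

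XPC (ENSG00000154767, chr3:14145147-14178783, minus strand) recognises distorted DNA at the start of nucleotide excision repair, and it had the largest fall of the 10 genes under THZ531. Its 3' UTR (chr3:14145147-14145943) held 1723 counts. The gene had 13.1, 14.5 and 12.9 CPM in AZ5576 libraries, 7.29, 6.73 and 7.27 CPM in THZ531 libraries, 17.5, 15.4 and 16.2 CPM in YKL5124 libraries, and 19.6, 15.6 and 16.9 CPM in DMSO libraries. THZ531 libraries were lowest, AZ5576 libraries next, and YKL5124 overlapped DMSO. XPC was 2.46-fold lower under THZ531 than in DMSO (log2 fold change -1.30, SE 0.13, adjusted p = 5.17e-10), although 13.3% of all genes had a lower value there. It fell by 0.39 under AZ5576 (SE 0.11, adjusted p = 0.00672), a call lost without DMSO replicate 1 (-0.29, adjusted p = 0.0677). Under YKL5124 it did not pass the test (-0.10, 95% interval -0.31 to 0.12, adjusted p = 0.594). The counted stretch of XPC overlaps exons of AC093495.1 (571 bases) and AC090004.1 (362 bases) on the opposite strand.

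ZMAT3 (ENSG00000172667, chr3:179017223-179072279, minus strand) encodes a zinc finger protein that binds RNA and affects splicing and mRNA stability, and it had the largest rise of the 10 genes under THZ531. Its 3' UTR (chr3:179017223-179025019) held 1887 counts. The gene had 13.4, 10.3 and 13.4 CPM in AZ5576 libraries, 30.3, 30 and 32.5 CPM in THZ531 libraries, 11.6, 11.5 and 11.2 CPM in YKL5124 libraries, and 9.34, 8.09 and 10.5 CPM in DMSO libraries. THZ531 libraries were highest by far, YKL5124 libraries lay just above DMSO, and AZ5576 overlapped DMSO. ZMAT3 was 3.31-fold higher under THZ531 than in DMSO (log2 fold change 1.73, SE 0.11, adjusted p = 4.77e-14), above 98.5% of all genes. It rose by 0.44 under AZ5576 (SE 0.13, adjusted p = 0.00509), a call lost with fly scaling (0.26, adjusted p = 0.249). The value of 0.29 under YKL5124 (SE 0.13, adjusted p = 0.105) passed the threshold only with upper quartile factors (0.36, adjusted p = 0.0396).

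**Figure D3:**
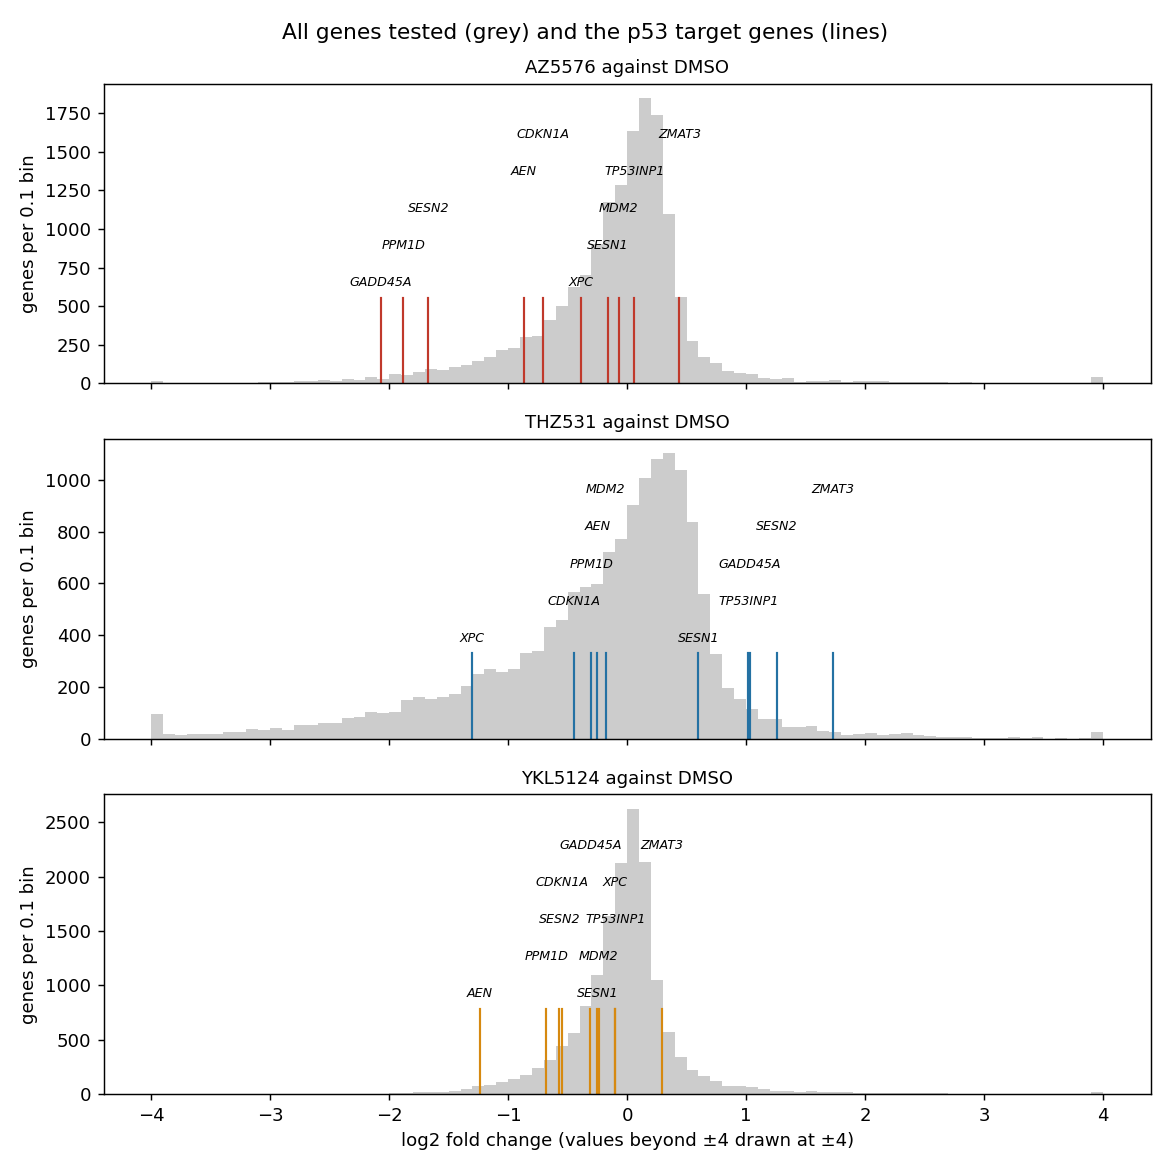
Histograms of the log2 fold change of 15831 genes against DMSO (bins of 0.1 on the x axis, genes per bin on the y axis), with a line for each p53 target gene, in panels for AZ5576, THZ531 and YKL5124, with values beyond 4 in size drawn at the edge. GADD45A stood near the low end under AZ5576 (-2.07), ZMAT3 near the high end under THZ531 (1.73) and AEN near the low end under YKL5124 (-1.24).

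Compared directly, AZ5576 and THZ531 differed in 8 of the 10 genes, 1 higher and 7 lower under AZ5576, beside 55% of all genes, 27.8% higher and 27.1% lower. GADD45A was 8.59-fold lower under AZ5576 than under THZ531 (log2 difference -3.10, SE 0.11, adjusted p = 1.14e-20) and SESN2 7.59-fold lower (-2.92, SE 0.11, adjusted p = 4.81e-20). PPM1D (-1.58, SE 0.23), ZMAT3 (-1.28, SE 0.11), SESN1 (-0.76, SE 0.16) and AEN (-0.62, SE 0.08) were also lower, as was TP53INP1 (-0.96, SE 0.35, adjusted p = 0.0225). XPC was the gene that was higher under AZ5576 (0.91, SE 0.14, adjusted p = 1.68e-06). The TP53INP1 call was lost without AZ5576 replicate 2 (-0.80), without THZ531 replicate 2 (-0.86) or 3 (-0.93), in DESeq2 (-0.98), with library size alone (-0.79) and on fly scaling (-0.76). For MDM2 the difference of 0.11 (95% interval -0.03 to 0.25, adjusted p = 0.195) took the opposite sign with rows summed (-0.24, adjusted p = 0.0123). It passed as higher with library size alone (0.28) and fly scaling (0.29). The sum counts reads in the middle of the MDM2 3' UTR several times, since rows overlap there. Tested as rows, that middle stretch differed by -0.34 (SE 0.08) and the rest of the UTR by 0.84 (SE 0.10). Of all called genes 50.6% were higher under AZ5576, but 70.2% with fly scaling, where 2 of the 10 genes were higher and 6 lower.

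THZ531 and YKL5124 differed in 7 of the 10 genes, 6 higher and 1 lower under THZ531, beside 61% of all genes, 30.5% in each direction. SESN2 (1.83, SE 0.09, adjusted p = 1.5e-16), ZMAT3 (1.44, SE 0.11), GADD45A (1.34, SE 0.09), TP53INP1 (1.12, SE 0.36, adjusted p = 0.0075), AEN (0.99, SE 0.08) and SESN1 (0.85, SE 0.16) were higher, and XPC was lower (-1.20, SE 0.13). TP53INP1 was not called with fly scaling (0.82). PPM1D (0.38, 95% interval 0.01 to 0.76, adjusted p = 0.0816) passed with rows summed (0.48), and MDM2 (0.06, adjusted p = 0.447) was lower under THZ531 with library size alone (-0.21, adjusted p = 0.0113). Among all called genes 50% were higher under THZ531, but 20.2% with fly scaling, where 5 of the 10 genes were higher and 1 lower.

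AZ5576 and YKL5124 differed in 4 of the 10 genes, 1 higher and 3 lower under AZ5576, beside 15.8% of all genes, 6.23% higher and 9.6% lower. GADD45A (-1.77, SE 0.12, adjusted p = 4.17e-12), PPM1D (-1.20, SE 0.23, adjusted p = 0.000445) and SESN2 (-1.10, SE 0.12, adjusted p = 1.06e-07) were lower under AZ5576, and AEN was higher (0.37, SE 0.08, adjusted p = 0.00199). The AEN difference was not called with fly scaling (0.25, adjusted p = 0.238), where 0 of the 10 genes were higher and 3 lower and 7.48% of all called genes were higher under AZ5576, in place of 39.4%. With library size alone that share was 10.2%, and XPC passed as lower (-0.40), having missed the threshold otherwise (-0.29, adjusted p = 0.0878).

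Rows of the table are stretches of transcripts, so a gene can be read at more than 1 end. Of 59 rows of the 10 genes that held counts, 26 passed the filter in a fit of 46604 rows tested on their own. Under AZ5576, 1 row of the 10 genes was higher and 12 were lower, beside 29.2% of all rows called (12.4% higher and 16.8% lower). Under THZ531, 8 were higher and 7 lower, beside 52.9% (26.1% higher and 26.8% lower). The 8 include a CDKN1A row in an intron and a short ZMAT3 row. The ZMAT3 row had 11 counts in each THZ531 library and at most 7 in any other. Both passed the filter only through the THZ531 libraries, where they are high, so their calls are no support for a rise. Under YKL5124, 0 were higher and 10 lower, beside 12.5% (3.99% higher and 8.55% lower). These rows overlap and are not independent. The rows described next were chosen after they had been seen.

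In CDKN1A, THZ531 libraries had more reads than the others at an end inside the first intron. This row is the last exon of ENST00000462537, a noncoding transcript, and spans 384 bases (chr6:36680474-36680857), whose AATAAA signal is shown above, and it overlaps no exon of another gene. It had 17, 30 and 32 counts in THZ531 libraries, 3, 3 and 2 in AZ5576 libraries, 1, 2 and 3 in YKL5124 libraries, and 3, 1 and 1 in DMSO libraries. THZ531 libraries held 79 of its 98 counts (80.6%), with no overlap with the other groups. The row passed the filter on low counts only through the THZ531 libraries and was picked for its counts there, so no test of it is given. The last exon fell by 0.50 under THZ531 in the fit of rows (SE 0.14, adjusted p = 0.00375, edgeR). Of the reads at both ends, the intron end took 19.5% to 30.6% in THZ531 libraries, 2.44% to 6% in AZ5576 libraries, 1.43% to 2.7% in YKL5124 libraries and 0.621% to 1.84% in DMSO libraries. The fall of the last exon under YKL5124 in the row fit (-0.55, SE 0.14, adjusted p = 0.007) was lost without YKL5124 replicate 2 (-0.48).

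**Figure D4:**
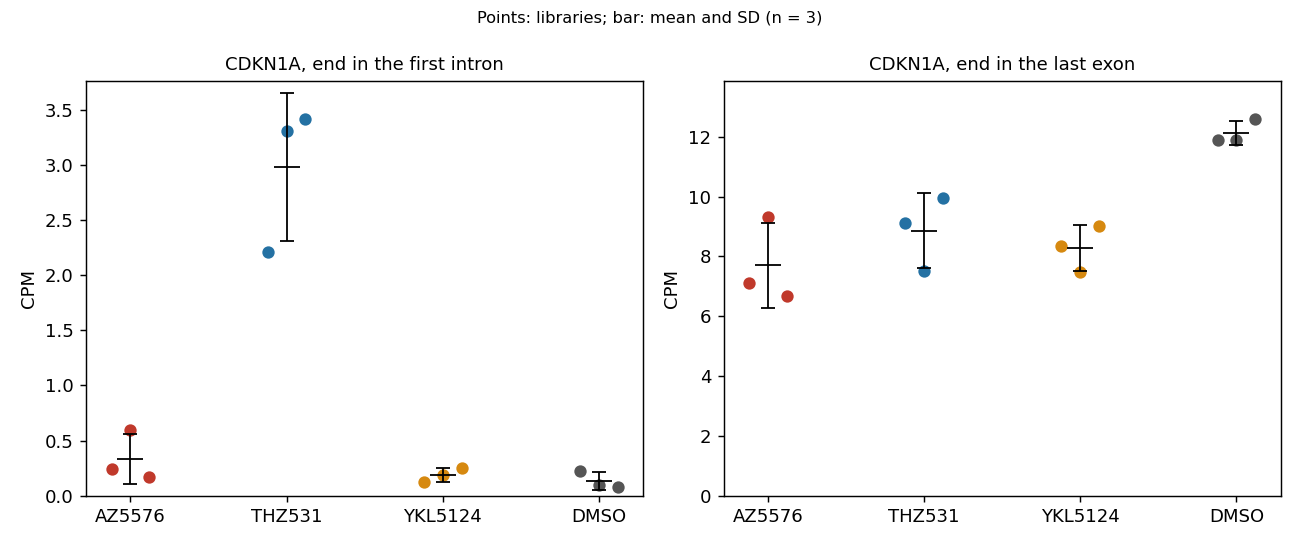
CPM at the CDKN1A end in the first intron (left) and in the last exon (right), per library with mean and SD (n = 3). THZ531 libraries had 2.21 to 3.42 CPM at the intron end, against at most 0.594 CPM in any other library, while all inhibitor libraries lay below DMSO at the last exon.

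In MDM2, parts of the 3' UTR changed in opposite directions under AZ5576, while the UTR as a whole did not pass the test. The UTR row spans 10840 bases (chr12:68839847-68850686), and a row of 450 bases in its middle (chr12:68843741-68844190), the last exon of ENST00000544125, held 5468 of its 9103 counts (60.1%). The middle row took 48.2%, 47.4% and 49.5% of the UTR counts in AZ5576 libraries, 69.1%, 67.5% and 67.9% in THZ531 libraries, 61.5%, 56.2% and 59.2% in YKL5124 libraries, and 61.6%, 65.8% and 67.5% in DMSO libraries. AZ5576 libraries were lowest and overlapped no other group, and THZ531 libraries were at or just above the highest DMSO library. In the row fit, the middle row fell by 0.50 under AZ5576 (SE 0.08, adjusted p = 1.06e-05) and by 0.38 under YKL5124 (SE 0.08, adjusted p = 0.000712). The rest of the UTR rose by 0.47 under AZ5576 (SE 0.09, adjusted p = 0.000232) and fell by 0.37 under THZ531 (SE 0.10, adjusted p = 0.00247), with -0.02 under YKL5124 (SE 0.10, adjusted p = 0.926). The AZ5576 rise of the rest was lost with fly scaling (0.31, adjusted p = 0.0831), and the THZ531 fall of the rest was lost without DMSO replicate 1 (-0.25, adjusted p = 0.0524). Under THZ531 the middle row missed the threshold (-0.16, SE 0.08, adjusted p = 0.0949) but passed without AZ5576 replicate 2 (-0.18), with library size alone (-0.43) and on fly scaling (-0.47). The exact permutation test of the share (two-sided) gave p = 0.1 for each inhibitor against DMSO, the smallest that 3 against 3 libraries allow. The middle row overlaps no exon of another gene. The rest holds the 3 overlaps named for the whole row. Its reads are the UTR counts less those of the middle row. They were not placed within the UTR, so they are not counts of its far end.

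**Figure D5:**
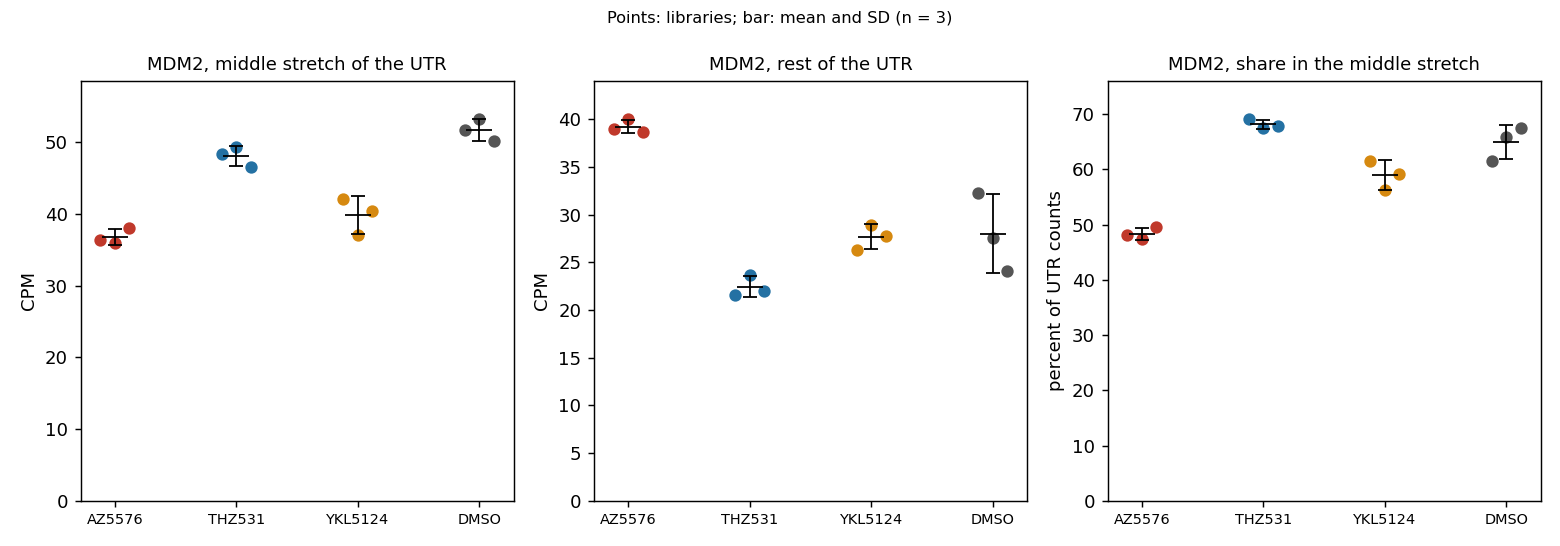
MDM2 reads in the middle stretch of the 3' UTR in CPM (left), in the rest of the UTR in CPM (centre) and as the percent of UTR counts in the middle stretch (right), per library with mean and SD (n = 3). In AZ5576 libraries the middle stretch had 36 to 38 CPM, below the 50.2 to 53.2 CPM of DMSO, and the rest 38.7 to 40 CPM, above the 24.1 to 32.3 CPM of DMSO.

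Other p53 targets, 53 genes listed from general knowledge, of which 44 passed the filter, gave a wider view. Under AZ5576, 2 of the 44 were higher and 22 lower, beside 18.6% higher and 23.1% lower among all genes, and the median log2 fold change was -0.28, beside 0.01 for all genes. With fly scaling or library size alone, 0 were higher and 22 lower. PLK3, a stress kinase (-2.76, SE 0.25), SERTAD1, a transcriptional coregulator (-2.64, SE 0.17), and BTG1, an antiproliferative factor (-2.12, SE 0.08), fell most of those with at least 5 CPM on average in 1 of the groups compared, while RPS27L, a ribosomal protein (0.19, SE 0.07), and PERP, a junction protein tied to apoptosis (0.22, SE 0.09), were higher. Neither rise was called without AZ5576 replicate 2 (0.18 and 0.22) or with fly scaling (0.00 and 0.03). RPS27L was also lost without AZ5576 replicate 1 (0.18) and DMSO replicates 1 (0.17) and 3 (0.18). PERP was lost on leaving out any AZ5576 or DMSO library (0.18 to 0.25) or YKL5124 replicate 2 (0.21).

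Under THZ531, 19 of these 44 were higher and 14 lower, beside 30.4% higher and 32.9% lower among all genes, with a median of 0.20, beside -0.00. The balance turned with fly scaling, where 10 were higher and 17 lower, and with library size alone, where 11 were higher and 17 lower. SERTAD1 (2.36, SE 0.10), PLK2, a polo-like kinase (2.06, SE 0.21), and TNFRSF10D, a decoy receptor for the death ligand TRAIL (1.86, SE 0.15), rose most. TMEM68 (-3.16, SE 0.33), FBXO22, a ubiquitin ligase subunit (-1.66, SE 0.09), and TNFRSF10A, a TRAIL receptor (-1.59, SE 0.11), fell most. Under YKL5124, 3 of the 44 were higher and 12 lower, beside 7.25% higher and 13.5% lower among all genes, with a median of -0.11, beside -0.00. Upper quartile factors gave 5 higher and 11 lower, and fly scaling 1 higher and 11 lower. BBC3, which encodes the apoptosis activator PUMA (-1.27, SE 0.10), PLK3 (-0.98, SE 0.19) and BTG1 (-0.92, SE 0.08) fell, and TNFRSF10D (0.63, SE 0.16), BLOC1S2 (0.29, SE 0.07) and FBXW7, a ubiquitin ligase subunit (0.27, SE 0.08), rose. The BLOC1S2 and FBXW7 calls were lost with fly scaling (0.23 and 0.21), and that of FBXW7 also without YKL5124 replicate 2 (0.22) and with rows summed (0.23). SERTAD1 had 2.09 CPM on average under AZ5576, 63.2 CPM under THZ531 and 12.2 CPM in DMSO, so it fell under AZ5576 and rose under THZ531, as GADD45A and SESN2 did. It was not alone in the list: BTG1 (-2.12 under AZ5576 and 1.28 under THZ531) and BBC3 (-1.95 and 0.72) were called in the same directions. Others were called lower under both, such as FBXO22 (-0.80 and -1.66) and TNFRSF10A (-0.94 and -1.59).

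Genes that regulate p53 or act beside it were 22 listed genes, of which 19 passed. Under AZ5576, 3 of the 19 were higher and 8 lower (median -0.13), beside 41.7% of all genes called, 18.6% higher and 23.1% lower. Under THZ531, 6 were higher and 8 lower (median -0.21), beside 63.4%, 30.4% higher and 32.9% lower. Under YKL5124, 0 were higher and 7 lower (median -0.10), beside 20.8%, 7.25% higher and 13.5% lower. The medians of all genes were 0.01 under AZ5576, -0.00 under THZ531 and -0.00 under YKL5124. Fly scaling gave 0 higher and 9 lower for AZ5576, 3 and 13 for THZ531, and 0 and 7 for YKL5124, and upper quartile factors gave 3 and 6 for YKL5124. HIPK2, a kinase that activates p53, rose by 0.50 under AZ5576 (SE 0.10) and fell by 1.02 under THZ531 (SE 0.11). The acetyltransferases EP300 and KAT5 fell under each inhibitor. The values were -0.90 (SE 0.12) and -0.57 (SE 0.07) under AZ5576, and -0.84 (SE 0.12) and -0.41 (SE 0.07) under THZ531. Under YKL5124 they were -0.43 (SE 0.11) and -0.44 (SE 0.07), and the EP300 fall there was lost without DMSO replicate 1 (-0.34, adjusted p = 0.0504). TP73, a p53 relative, fell by 2.10 under THZ531 (SE 0.15), and USP10, a deubiquitinase, by 1.02 (SE 0.13). CHEK1, a checkpoint kinase, rose by 1.01 under THZ531 (SE 0.12), but was at -0.30 (adjusted p = 0.0518) when its row was chosen in DMSO libraries alone. RPL11 and RPL5, ribosomal proteins that bind MDM2, rose, in rows of retained-intron transcripts outside their annotated 3' UTRs. RPL11 rose by 0.36 (SE 0.08) under AZ5576 and 0.64 (SE 0.08) under THZ531, and RPL5 by 0.25 (SE 0.05) and 0.63 (SE 0.05). The rises of HIPK2 (0.31), RPL11 (0.17) and RPL5 (0.06) under AZ5576 were lost with fly scaling, and the fall of USP10 was lost with rows summed (-0.21).

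Across the 12 libraries, the genes whose log2 CPM followed CDKN1A most closely included CDCA8 (Pearson r = 0.938) and GMEB2 (0.928), and those closest to MDM2 were CDT1 (0.878), UBTF (0.855) and PAQR4 (0.843), among 10343 genes that averaged 5 CPM or more. The 12 libraries fall into 4 groups, so these values describe a shared order of groups.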

How the data were processed

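As the authors deposited them, the values are raw read counts in 295100 rows and 12 columns, 1 per library. The genome builds hg38 and dm6 and the tools Trim Galore 0.6.5, bcl2fastq 2.17.1.14 and edgeR 3.32.1 appear in the submitters' processing notes. The sources used here give no aligner, counter or strand setting. Without strand, genes that overlap cannot be told apart. Inhibitor columns match sample titles, and the 3 columns named UT, a name found in no label, were taken as DMSO by elimination.

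The 256726 human rows were named through GENCODE v29 (GRCh38), and the 5197 unnamed rows (0.655% to 0.719% of counts) were left out. By their number per transcript, rows are inferred to be 3' UTR pieces of coding transcripts and last exons of others. They overlap, and summing them gave 3.31 to 3.41 times as many counts as keeping 1 row per gene. So the row with the highest total over all libraries stood for its gene, in place of the sum planned. The alternative with rows summed counts shared reads more than once, so its values and p-values rest on repeated reads. Among genes with identical counts 1 was kept, and 94 were dropped. The tested row overlapped a coding 3' UTR for all 10 genes, for 38 of 44 other targets and for 11 of 19 regulators, where it lay outside for 3 and was not placed for 5.

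All 12 libraries entered 1 edgeR 4.0.16 quasi-likelihood fit (R 4.3.3, limma 3.58.1) with group as its term, TMM factors over human genes, filterByExpr (minimum count 10) and Benjamini-Hochberg adjustment over 15831 genes at 0.05. The SE is the log2 fold change over the root of F, and 95% intervals are 1.96 SE either side. The fit was tested on simulated data. Within groups, libraries differed by more than sampling noise (chi-square per gene 1.73 to 5), so none was counted as a duplicate. The members and lists were chosen with earlier results of these data known. From each list, the 3 called genes with the largest rise and fall are named, among those averaging 5 CPM or more in a compared group, and some genes this names are not reported here. Alternatives were other scalings, filters, row choices, DESeq2 1.42.0, a replicate block, the 6 libraries compared alone, and leaving out each library.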

Additional observations from a re-analysis of the deposited data

How the results depend on the processing

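Across 23 alternatives, of which 12 left out 1 library each, 1337 of 1374 values of the 10 genes stayed on their side of the threshold. Called values among these also kept their direction, while values not called could change sign and still count as the same. Of the others, 23 lost the call, 12 gained one and 2 reversed, taking the opposite sign with a call. By this measure 42 of 60 comparisons were the same in every alternative run. The reversals were MDM2 in AZ5576 against THZ531 with rows summed (-0.24) and in THZ531 against YKL5124 with library size alone (-0.21). The sum of rows counts some MDM2 reads more than once. Of 667 values of named list genes, 32 lost the call and 1 reversed, that of CHEK1 under THZ531 with its row chosen in DMSO libraries (-0.30). Of 276 total counts of calls, 275 stayed within 1.5 times, but the split by direction moved more: under THZ531 with fly scaling, other targets were 10 higher and 17 lower in place of 19 and 14, and regulators 3 and 13 in place of 6 and 8. The exception was the regulators of p53 under YKL5124, where DESeq2 called 4 and edgeR 7. The cause was not tested. The alternatives for single rows of CDKN1A and MDM2 were chosen after seeing the data, and 174 of their 180 values were the same. These include the values of the CDKN1A intron end, whose test is not used, so the tally is no support for that row.

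Leaving out 1 library gave 6 to 7 of the 10 genes called under AZ5576, 8 to 10 under THZ531 and 5 to 6 under YKL5124 against DMSO. Same-numbered replicates showed no steady shared deviation (18 pairs, r from -0.266 to 0.189, 5 above 0.1). This check cannot settle whether the numbers pair samples, since groups hold 3 libraries each and the DMSO columns were not matched to single samples. With the replicate number as a block, the counts of the 10 genes stayed at 7, 9 and 6 against DMSO and 8, 4 and 7 between inhibitors, and other targets called under AZ5576 numbered 22 in place of 24.

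With upper quartile factors, 54.1% of calls under YKL5124 were higher, in place of 34.9%, and 1 of the 10 genes was higher and 5 lower. Scaling by library size alone put the median over all genes at -0.12 under AZ5576 and -0.29 under THZ531, and 21.9% and 23.2% of calls were higher. Depth limits TP53INP1, which a filter of 50 counts in 3 libraries removed, and the CDKN1A intron end.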
